A study of Homo sapiens with 3 samples.

Results

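The 34 genes described here encode the subunits of the nuclear RNA polymerases Pol I, Pol II and Pol III, followed by their knockout single guide RNAs (sgRNAs) through a pooled CRISPR screen. They were chosen by name, as every gene whose sgRNA names begin with POLR1, POLR2 or POLR3 and a letter, together with TWISTNB, ZNRD1, CD3EAP and CRCP. They made up 34 of the 20381 genes targeted and 306 of 189398 gene-targeting sgRNAs. The screen used K562, a human leukaemia cell line whose surface holds little MHC class I (MHC-I), engineered to express the nuclease Cas9. Lentiviral infection was at a multiplicity of 0.3, and puromycin (1 μg/mL, 72 h) was begun 48 h later. There were 3 groups of 1 library each: cells flow-sorted for high HLA-B, named HLA-B high sorted, the unsorted cells of the same screen, named high-screen control, and the unsorted cells of a separate screen for low MHC-I, named low-screen control. The high screen was sorted on days 18 and 25 after 24 h of interferon-γ at 1 ng/mL, and the low screen on days 7 and 15 after 24 h at 25 ng/mL. The day on which either unsorted pool was harvested is not given in the sources used here. Cells of all 3 groups expressed Cas9, so the controls are pools of knockouts too.

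Pol I makes the large ribosomal RNA precursor, Pol II makes messenger RNA and many small nuclear RNAs, and Pol III makes transfer RNAs and 5S ribosomal RNA. Each enzyme is built around a pair of very large catalytic subunits, with an assembly platform, a stalk that meets the emerging RNA, and small subunits that all the enzymes use. Proliferating cells depend on all of them, so in a knockout pool the sgRNAs of most subunits are generally lost as cells divide.

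The subunits were grouped by the enzymes that contain them. Pol I alone used 6 genes (POLR1A, POLR1B, POLR1E, CD3EAP, TWISTNB and ZNRD1), Pol I and Pol III shared POLR1C and POLR1D, and all the enzymes shared 5 (POLR2E, POLR2F, POLR2H, POLR2K and POLR2L). Pol II alone had 10 entries and Pol III alone 11. TWISTNB, ZNRD1 and CD3EAP are older names of POLR1F, POLR1H and POLR1G. The library held 10 sgRNAs for 22 of the 34 entries, but 7 for CRCP and 4 for POLR2K. POLR2J2 was listed under 2 gene identifiers, the gene itself with 2 sgRNAs and an overlapping readthrough gene with 4.

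POLR2J and POLR2J2 are near copies, which matters because reads that aligned to more than 1 sgRNA were removed before counting. Their second coding exons are printed to show how little sequence separates the copies. Both are on the minus strand of GRCh37, at chr7:102116628-102116717 for POLR2J and chr7:102309362-102309451 for POLR2J2, and capitals mark the 2 of 90 bases that differ.
POLR2J coding exon 2: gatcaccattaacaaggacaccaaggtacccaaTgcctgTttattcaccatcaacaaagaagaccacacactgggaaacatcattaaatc
POLR2J2 coding exon 2: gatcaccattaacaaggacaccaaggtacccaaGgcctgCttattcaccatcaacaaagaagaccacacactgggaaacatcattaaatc
The exons were 97.8% identical, and the third coding exons were 99.4% identical over 175 bases. An sgRNA designed in either exon could cut both genes, so the values of POLR2J and both POLR2J2 entries are uncertain as single-gene values.

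Reads matched to an sgRNA numbered 22562241 in the high-screen control, 98426251 in the low-screen control and 34266318 after the sort. The yardstick throughout was the 6645 safe-targeting sgRNAs, which cut genomic sites without known function. Their median count was 87 reads in the high-screen and 413 in the low-screen control. In the sorted library only 49.6% of all sgRNAs were listed at all, and the safe-targeting median was 1 read. With a single library a group, no difference has a replicate error beside it. Intervals are exact Clopper-Pearson 95% intervals over sgRNAs, which cover counting of sgRNAs only, and the sgRNAs of a gene share their target.

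sgRNAs against the polymerases were below the safe-targeting sgRNAs in both unsorted pools. The level of a gene was the median over its sgRNAs of log2(CPM + 0.1), where CPM is the count scaled to a fixed total of matched reads per library, minus the same median for safe-targeting sgRNAs in that library. Levels were below 0 for 30 of 34 entries in the high-screen control, against 51.3% of all genes, and for 31 of 34 in the low-screen control, against 56.6% of all genes. The median level was -0.57 in the high-screen and -0.86 in the low-screen control, beside -0.02 and -0.10 over all genes. At least 1 log2 unit below safe-targeting were 10 of the 34 in the high-screen control, where 10.9% of all genes were, and 15 of the 34 in the low-screen control, where 11.5% of all genes were. The starting abundance of each sgRNA was not analysed here, so a level mixes loss from the pool with how common the sgRNA was at infection.

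**Figure D1:**
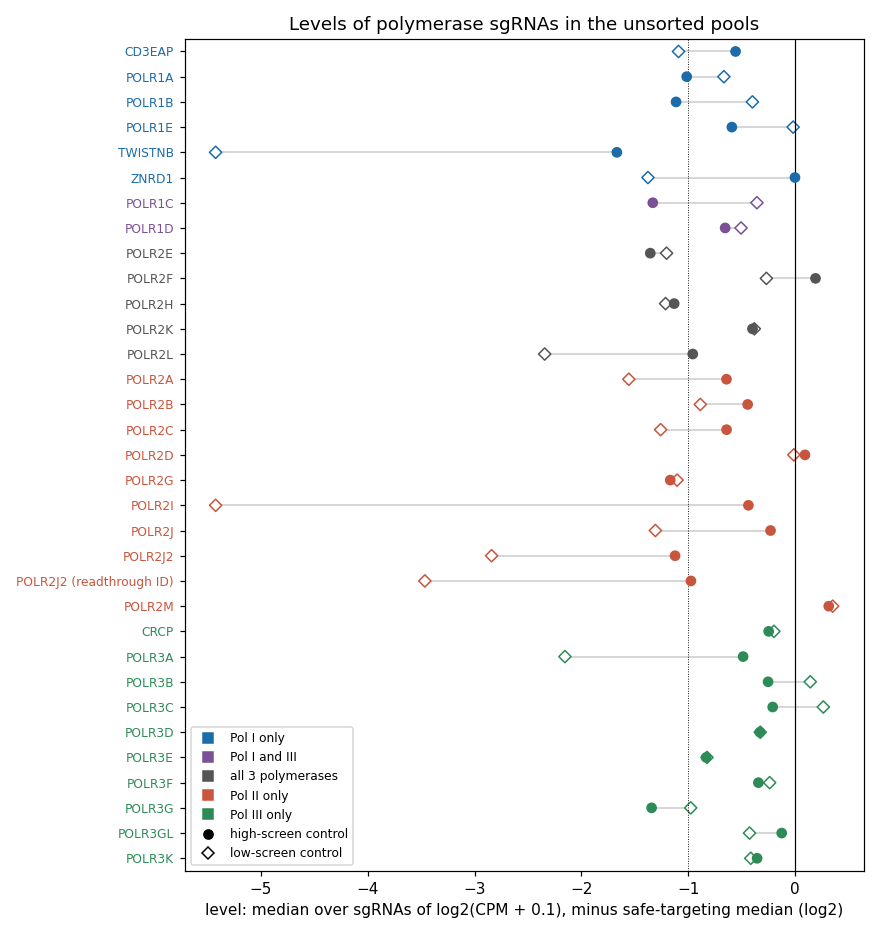
Level of the polymerase genes (median over its sgRNAs of log2(CPM + 0.1), minus the safe-targeting median, log2 units) in the high-screen control (filled circles) and low-screen control (open diamonds), coloured by the enzyme that contains the subunit. TWISTNB and POLR2I reach -5.42 in the low-screen control, where most of their sgRNAs had no reads, whereas POLR2M lies above 0 in both pools.

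The polymerases differed in how low they lay. In the low-screen control the median level was -1.28 for Pol II only subunits, -1.20 for subunits of all 3 enzymes, -0.88 for Pol I only subunits and -0.41 for Pol III only subunits. At least 1 below safe-targeting were 7 of 10 Pol II only entries, 3 of 5 shared by all, 3 of 6 Pol I only and 2 of 11 Pol III only. The 7 included POLR2J (-1.31) and both POLR2J2 entries (-2.84 from 2 sgRNAs and -3.47 from 4), which are uncertain as single-gene values. The Pol II only median was not computed without them, so its place in the order depends on them. In the high-screen control the order was another: -0.80 for Pol I only, -0.54 for Pol II only and -0.34 for Pol III only subunits, with -0.96 for those shared by all. Pol III only subunits were thus the least low of these classes in both pools, and Pol II only subunits lay lower than Pol I only subunits in the low-screen control alone. The classes overlapped, with Pol III only levels from -1.34 to -0.12 and Pol II only levels from -1.17 to 0.32 in the high-screen control. POLR1C and POLR1D, which form the platform of Pol I and Pol III, had levels of -1.33 and -0.65 in the high-screen and -0.36 and -0.51 in the low-screen control.

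Among Pol I subunits the catalytic pair lay low mainly in the high-screen control. POLR1A, the largest subunit, had a level of -1.01 there and -0.67 in the low-screen control. POLR1B, the second-largest, had -1.11 and -0.40. The stalk subunit TWISTNB was the lowest polymerase gene of the high-screen control at -1.67, at percentile 3.92 of all genes, and shared the lowest level of the low-screen control, -5.42, with POLR2I. CD3EAP and POLR1E, which form a heterodimer on the enzyme, differed from each other, at -0.56 and -0.59 in the high-screen control but -1.09 and -0.02 in the low-screen control. ZNRD1, which helps the enzyme cleave backtracked RNA, sat at the safe-targeting median in the high-screen control (0.00) and at -1.38 in the low-screen control.

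Pol II subunits ran from the floor of -5.42 to 0.35 in the low-screen control. POLR2A, the largest subunit with the phosphorylated C-terminal repeats, had levels of -0.64 and -1.56 in the high-screen and low-screen controls, and its catalytic partner POLR2B had -0.44 and -0.89. The platform subunit POLR2C had -0.64 and -1.26. Of the stalk pair, POLR2G lay at -1.17 and -1.10, whereas its partner POLR2D was at 0.09 and -0.01. POLR2M, also called Gdown1, is no core subunit but binds Pol II and holds back initiation. It was the highest of the 34 in both pools, at 0.32 and 0.35, with percentiles of 71.7 and 79.4 among all genes. Of the small subunits common to all enzymes, POLR2E (-1.35 and -1.20) and POLR2H (-1.13 and -1.21) were low in both pools. POLR2F was not, at 0.19 and -0.27.

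Of the Pol III only subunits, all 11 lay below safe-targeting in the high-screen control and 9 of 11 in the low-screen control. At least 1 below were 2 of 11 in each pool. The catalytic subunit POLR3B was at -0.25 in the high-screen and 0.14 in the low-screen control, whereas the largest subunit POLR3A was at -0.49 and -2.15. POLR3C and POLR3F, which belong to the initiation subcomplex, were at -0.21 and -0.34 in the high-screen control, and at 0.27 and -0.24 in the low-screen control. The third position of that subcomplex is filled by either of 2 paralogs: POLR3G lay at -1.34 and -0.98, and POLR3GL at -0.12 and -0.43. CRCP, of the stalk, was at -0.25 and -0.20. POLR3D and POLR3E, a heterodimer, were at -0.33 and -0.83 in the high-screen and at -0.32 and -0.82 in the low-screen control.

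Polymerase sgRNAs were also more often without any read. In the low-screen control 48 of the 306 polymerase sgRNAs were absent, or 15.7% (11.8 to 20.3), against 6.60% (6.49 to 6.71) of all gene-targeting and 5.36% (4.83 to 5.93) of safe-targeting sgRNAs. This was the deepest library, with a median of 386 reads for a gene-targeting sgRNA. Of the 48, 47 had reads in the high-screen control. They were spread over 24 of the 34 entries, and outside the 4 genes called below the absent share was still 11.1% of 270 sgRNAs. By enzyme the share was 19.3% (10.0 to 31.9) for Pol I only, 17.5% (9.91 to 27.6) for Pol II only, 16.7% (6.97 to 31.4) for subunits of all enzymes and 14.0% (8.06 to 22.1) for Pol III only, with intervals that overlapped. For POLR1C and POLR1D together it was 1 of 20 sgRNAs, or 5% (0.13 to 24.9). That share was not above the 6.60% of all gene-targeting sgRNAs, and its interval overlapped the others. The high-screen control lacked 11 polymerase sgRNAs, 3.59% (1.81 to 6.34), beside 2.28% of all gene-targeting sgRNAs, an interval that includes that share.

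**Figure D2:**
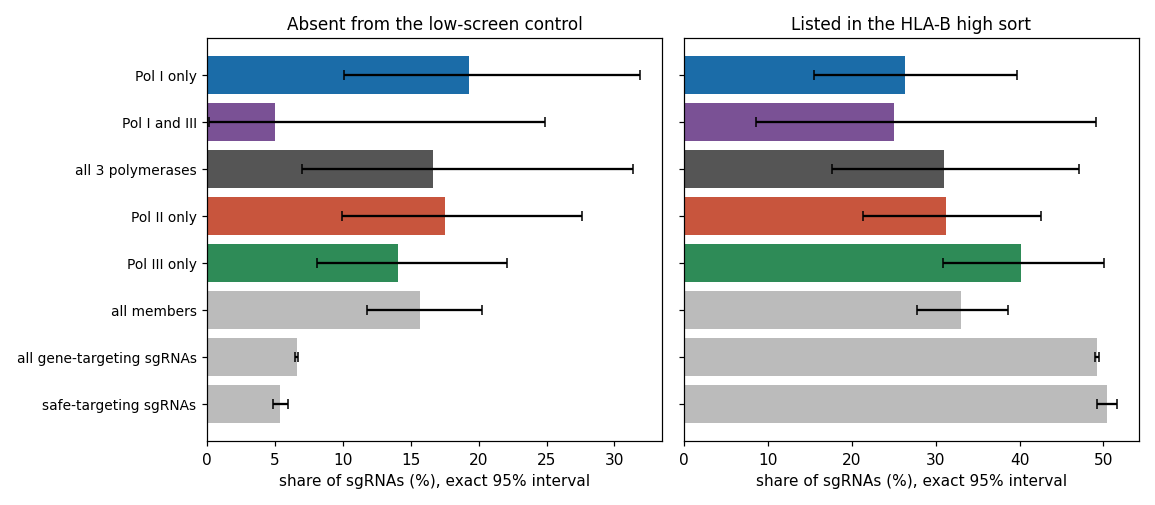
Share of sgRNAs (%) with no reads in the low-screen control (left) and share with at least 1 read in the HLA-B high sorted library (right), for each class of polymerase subunit, all 34 entries, all gene-targeting and safe-targeting sgRNAs, with exact 95% intervals over sgRNAs. The 34 entries together stand at 15.7% on the left, above the 6.60% of all gene-targeting sgRNAs, and at 33.0% on the right, below 49.2%.

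The unsorted pools were then compared directly by the log2 ratio of high-screen over low-screen control. Genes were scored by redundant siRNA activity (RSA), a rank test over the sgRNAs of a gene, one-sided from each end. A call needed an RSA p under 0.001 reached with 4 or more sgRNAs, and the p measures agreement among sgRNAs of these libraries, not between replicates. Called higher in the high-screen control were 4 of the 34 entries, POLR2I, POLR3A, TWISTNB and POLR2L, beside 0.831% of 20341 genes. They comprised a Pol II, a Pol III, a Pol I and a common subunit. None was called lower, beside 0.733% of genes. By the exact null of the score with Benjamini-Hochberg adjustment over all genes, no polymerase gene passed in either direction, nor did any other gene. At an unadjusted exact p below 0.05, 7 of the 34 were higher, beside 6.61% of all genes, and 2 were lower, beside 6.29%, a share near the background.

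All these calls rested in part or wholly on sgRNAs that the low-screen control lacked. The scores of POLR3A and POLR2L each took in 7 sgRNAs, of which 4 and 3 were absent there. The called genes held 18 absent sgRNAs among 36, each with reads in the high-screen control. When only sgRNAs with reads in both pools were ranked, a setting chosen after the data were seen, none of the 34 was called higher. That setting takes out the absent sgRNAs, and POLR2I keeps only 3, fewer than a call needs. It therefore cannot show whether the calls would stand.

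POLR2I, at chr19:36604611-36606115, encodes the small subunit that serves proofreading and transcript cleavage by Pol II. In the high-screen control its 8 sgRNAs ranged from 28 to 135 reads. In the low-screen control 5 of them had no reads, and the others had 78, 504 and 700. Summed over sgRNAs the gene had 26.4 CPM in the high-screen control, 13.0 CPM in the low-screen control and 17.0 CPM in the sorted library. The median log2 ratio between the pools was 6.57 and 6 of 8 sgRNAs exceeded 1 (exact adjusted p = 0.134). A median that falls on an absent sgRNA depends on the pseudocount and is no measure of fold.

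POLR3A, at chr10:79712906-79789280, ranged from 20 to 216 reads per sgRNA in the high-screen control. In the low-screen control 4 of 10 were absent and the highest had 688 reads. The sums were 37.2 CPM in the high-screen control, 14.9 CPM in the low-screen control and 17.4 CPM in the sorted library. Its median log2 ratio was 2.27, with 7 of 10 sgRNAs above 1 (exact adjusted p = 0.165). POLR3B, which pairs with POLR3A in the catalytic centre, went the other way in size, with a median of -0.56 and no absent sgRNA, and was called in neither direction.

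TWISTNB, at chr7:19735084-19748660, ranged from 6 to 95 reads per sgRNA in the high-screen control, with a median of 26 against 87 for safe-targeting. In the low-screen control 6 of 10 were absent, and the others had 51, 121, 308 and 441 reads. The sums were 16.9 CPM, 9.36 CPM and, in the sorted library, 8.84 CPM from 1 sgRNA. Its median log2 ratio was 5.77 over 9 sgRNAs with enough reads, of which 5 exceeded 1 (exact adjusted p = 0.236). TWISTNB was thus low in both pools, and lower in the low-screen control.

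POLR2L, at chr11:837356-842529, is a small zinc-binding subunit of all the enzymes. In the high-screen control its 8 sgRNAs ranged from 30 to 100 reads, and 3 were absent from the low-screen control. The sums were 20.8 CPM in the high-screen control, 8.75 CPM in the low-screen control and 2.33 CPM in the sorted library. The median log2 ratio was 2.03, with 6 of 8 sgRNAs above 1 (exact adjusted p = 0.384).

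**Figure D3:**
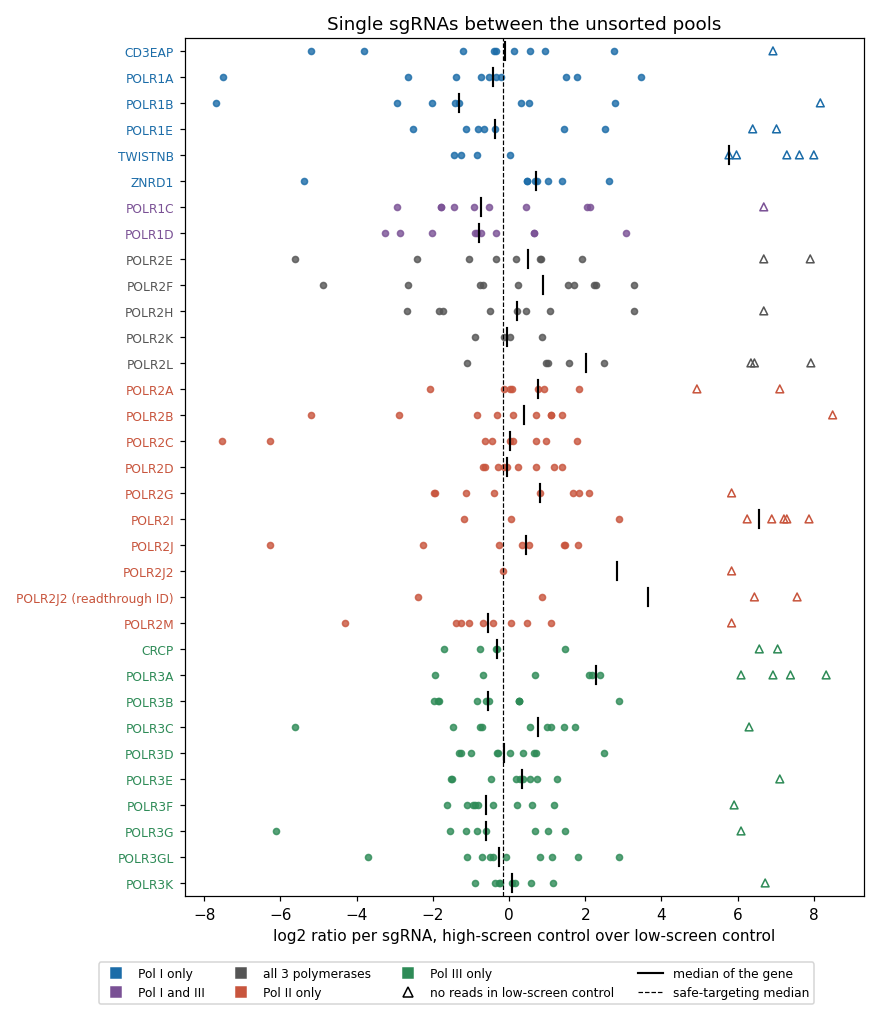
Log2 ratio of high-screen over low-screen control for polymerase sgRNAs with at least 10 reads in either pool. Open triangles are sgRNAs with no reads in the low-screen control, black ticks the median of each gene and the dashed line the safe-targeting median of -0.16. The triangles form a separate band, from 4.93 to 8.49, that sets the medians of POLR2I and TWISTNB.

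By size alone, 7 of the 34 had a median log2 ratio at least 1 above the safe-targeting median, beside 6.83% of all genes. They were the called genes, both POLR2J2 entries (2.83 and 3.65) and POLR2F (0.89, or 1.05 above safe-targeting). Just under the threshold were POLR2G at 0.96 above safe-targeting, POLR3C at 0.92 and POLR2A at 0.92. At least 1 below was POLR1B alone, at -1.31, beside 3.11% of all genes. Single sgRNAs spread widely, so that 33.1% (27.8 to 38.8) of polymerase sgRNAs were above 1, against 22.6% of gene-targeting and 18.8% of safe-targeting sgRNAs, while 23.7% were below -1, the same share as among all gene-targeting sgRNAs.

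Set by enzyme, the gene medians leaned differently. Against the safe-targeting median, the class median was 0.75 for Pol II only and 0.66 for subunits of all enzymes, but -0.08 for Pol I only, -0.10 for Pol III only and -0.60 for POLR1C and POLR1D. All genes together had 0.13. The signs of the Pol I only and Pol III only medians changed with the setting, to 0.25 and 0.22 with reads summed over the sgRNAs of a gene and to 0.49 and 0.18 without the lowest sgRNA of each gene. The Pol III only median was 0.01 with no minimum count. The Pol II only median fell to 0.26 with sgRNAs listed in both pools only. Above 0 were all 5 common subunits and 9 of 10 Pol II only entries, beside 12163 of 20341 genes. The 9 included POLR2J and both POLR2J2 entries, which are uncertain as single-gene values. POLR2M was the exception at -0.40. Of the Pol III only subunits 5 of 11 were above 0, and of the Pol I only subunits 3 of 6. Gene medians ran from -0.40 to 6.73 within Pol II only and up to 2.43 within Pol III only.

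The sort enriched cells with high HLA-B, so it asked which knockouts raise HLA-B. With a safe-targeting median of 1 read after the sort, it cannot decide which knockouts lower HLA-B. No polymerase gene was called in the sort. RSA called 0 of 34 higher, beside 0.532% of 20314 genes, and 0 of 34 lower, beside 0.418%. At an unadjusted exact p below 0.05 there were 2 of 34 in each direction, near the 5.24% of all genes higher and 5.68% lower, and none of the 34 passed after adjustment. The same counts of 0 were found with the low-screen control in place of the high-screen control.

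Polymerase sgRNAs were scarce in the sorted library. Of 306, 101 had reads, or 33.0% (27.8 to 38.6), against 49.2% (49.0 to 49.5) of gene-targeting and 50.4% (49.2 to 51.6) of safe-targeting sgRNAs. The share was 26.3% (15.5 to 39.7) for Pol I only, 31.0% (17.6 to 47.1) for common subunits, 31.2% (21.3 to 42.6) for Pol II only and 40.2% (30.8 to 50.1) for Pol III only. For POLR1C and POLR1D together it was 5 of 20 sgRNAs, or 25% (8.66 to 49.1). The median count of these sgRNAs was also lower in the high-screen control, at 57 reads against 86 for all gene-targeting sgRNAs. Within bins of that count the shares were also lower, but each bin held few polymerase sgRNAs. No intervals were computed for the bins. Among sgRNAs with 30 to 59 reads in the high-screen control 27.6% of 87 polymerase sgRNAs were listed after the sort, against 37.7% of gene-targeting sgRNAs. With 60 to 119 reads it was 40.0% of 85 against 48.9%, and with 120 reads or more 55.4% of 56 against 67.5%. Among sgRNAs with 10 to 29 reads it was 16.7% of 48 against 29.0%. The part of the lower counts in the high-screen control in this result was not tested beyond these bins.

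Of all sgRNAs that had 10 reads or more in the high-screen control, 31 of 276 against the polymerases, or 11.2% (7.76 to 15.6), were above a log2 ratio of 1 after the sort, beside 12.6% of gene-targeting and 11.7% of safe-targeting sgRNAs. Of those that also had reads after the sort, the 31 made up 31.96% of 97 (22.9 to 42.2), beside 24.4% of gene-targeting and 22.4% of safe-targeting sgRNAs. Both intervals include the share of all gene-targeting sgRNAs, while the second lies just above the safe-targeting share. By gene, 17 of the 34 had a median at least 1 below the safe-targeting median, beside 28.7% of all genes, and 4 at least 1 above, beside 34.6% of all genes. Such shares are wide because a median flips between listed and absent sgRNAs. The safe-targeting sgRNAs themselves had quartiles of -6.50 and -0.55. The 4 above were POLR2E, POLR2K, POLR2M and POLR3G, with medians of 0.16, -0.54, -1.43 and -0.31.

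**Figure D4:**
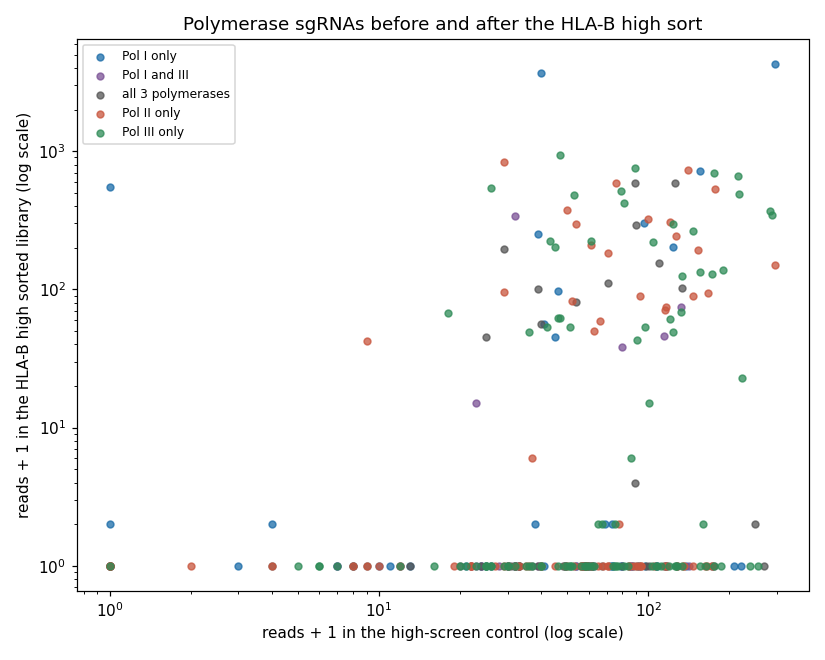
Reads + 1 of the polymerase sgRNAs in the high-screen control (x, log scale) and the HLA-B high sorted library (y, log scale), coloured by class. Most points lie at 0 reads after the sort, and a few sgRNAs stand alone, the highest being 1 each of POLR1E (4271 reads) and POLR1B (3670 reads).

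More than 1000 sorted reads were held by 8 of the 34, in a library with a mean of 171 reads per sgRNA. The share of all genes above 1000 reads was not counted, so no enrichment can be read from the 8. In 2 of these, POLR1E and POLR1B, nearly all came from 1 sgRNA, and in the other 6 the top sgRNA held 41.0% to 72.2%. POLR1E had 4272 sorted reads, of which 4271 came from 1 of 9 sgRNAs. POLR1B had 3672, of which 3670 came from 1 sgRNA with 39 reads in the high-screen control. POLR2D, with fewer reads, had 829, of which 828 came from 1 sgRNA. In these genes no second sgRNA had more than 1 read in the sorted library.

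POLR3G was the gene with most agreement. Its sums were 66.9 CPM after the sort, 23.9 CPM in the high-screen control and 21.0 CPM in the low-screen control. Of 8 sgRNAs with enough reads 4 exceeded a log2 ratio of 1, with 940, 695, 542 and 66 sorted reads, while 3 had none and the remaining sgRNA had 48. Its RSA p was 0.0038 with 2 sgRNAs at the best rank, short of a call (exact adjusted p = 0.886). Its paralog POLR3GL had 0 of 9 above 1. POLR3B followed with 3 of 10 above 1, at 755, 480 and 222 sorted reads, and was not called.

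ZNRD1 lies inside the MHC region of chromosome 6, at chr6:30026676-30032686. One of its 9 sgRNAs had 552 reads in the sorted library and none in either unsorted pool, so it has no ratio. Another had 721 reads after the sort against 154 in the high-screen control, and 5 of the 9 had no sorted reads. Its median log2 ratio was -6.19 and it was not called.

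Of 85 genes that work with the polymerases, 1 (1.18%) was called higher in the high-screen control, beside 0.831% of all genes, a share near the background. The lists held 7 Pol I factors, 31 general factors and 20 elongation factors of Pol II, 16 Pol III factors and 11 assembly factors. TAF3, a subunit of the general factor TFIID that reads histone H3 lysine methylation at promoters, was the gene called (median log2 ratio 1.32, with 3 of 10 sgRNAs absent from the low-screen control; exact adjusted p = 0.523). No factor was called lower, and none was called in the sort. By size alone, 8 of 31 Pol II general factors and 2 of 11 assembly factors were at least 1 above the safe-targeting median between the pools. No factor of the other lists was, beside 6.83% of all genes. At least 1 below was 1 of 16 Pol III factors and no other factor, beside 3.11% of all genes. At least 1 below safe-targeting in the low-screen control were 15 of 31 Pol II general factors, 6 of 20 Pol II elongation factors, 4 of 11 assembly factors, 2 of 16 Pol III factors and 1 of 7 Pol I factors, beside 11.5% of all genes. In the high-screen control the counts were 9 of 31, 6 of 20, 3 of 11, 4 of 16 and 3 of 7 in the same order, beside 10.9% of all genes. There the Pol I factors had the lowest median level of these lists, -0.996, whereas in the low-screen control the Pol II general factors did, at -0.90. The low-screen control lacked 16.6% of the sgRNAs of Pol II general factors and 15.0% of those of Pol II elongation factors. For assembly, Pol I and Pol III factors these shares were 14.2%, 11.8% and 9.80%, all above the 6.60% of gene-targeting sgRNAs as a whole. The high-screen control lacked 8.82% of the sgRNAs of Pol I factors and 3.63% to 4.48% of those of the other lists, beside 2.28% of all gene-targeting sgRNAs.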

How the data were processed

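The authors deposited, for each sgRNA, the raw read count with no normalization. Per the study's methods, reads were trimmed with fastx clipper or cutadapt and aligned to the sgRNA library with Bowtie2, and multi-aligning reads were dropped. The submitters' processing notes also name bcl2fastq, and versions are not given in the sources used here. PCR reads carry no molecular identifiers. An sgRNA missing from a file was given a count of 0. Unmatched reads (21.9%, 20.6% and 12.1% of the sorted, high-screen and low-screen libraries) were left out. The title and the data file of the low-screen control name different antibodies.

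Counts were scaled to the mean matched total of the 2 libraries compared, and a pseudocount of 1 was added. An sgRNA entered with 10 reads or more in the control of the sort or, between pools, in either pool. RSA followed the study, with ties at the larger rank. Ratios and RSA were fitted over all genes, and scripts were tested on simulated data. With 1 library per group no replicate spread exists. Python 3.11.15, numpy 2.4.6, pandas 2.3.3, scipy 1.17.1 and matplotlib 3.10.9 were used. Positions and exons are from GENCODE release 44 lifted to GRCh37, with sequence from that genome.

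The genes and lists were chosen with earlier results of these data known. Subunits are named, except 1 that is not reported here by name and is left out of the plots by gene or sgRNA but stays in counts and medians, and of the factors only those called. The scaling used and the threshold of 1 for levels were settled after a first look at values. sgRNA sequences were not used here. Alternatives covered the minimum count, pseudocount, centring, single sgRNAs, summed reads, the call rule and the control library.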

Additional observations from a re-analysis of the deposited data

How the results depend on the processing

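Of 126 values under alternatives, 104 stayed the same by rule, counts of 0 that stayed 0 among them. The rule allowed 1.5 times a count or 1 SD over the genes of a class median. That SD was up to 2.56, so class medians near 0 could change sign within it, as those of Pol I only and Pol III only subunits did. The calls of 4 genes higher in the high-screen control fell to 0 with sgRNAs listed in both pools only (chosen after seeing the data; 91 of all genes) and to 0 with the exact adjusted p (0 of all genes). Genes past the fold between the pools (7 higher, 1 lower) became 3 higher and 2 lower with sgRNAs of both pools only (960 and 602 of all genes), and 4 higher and 0 lower with summed reads (643 and 235). The lower count was 2 without centring (1017), 2 centred on non-targeting sgRNAs (1460) and 0 without the most extreme sgRNA of each gene (266). The median of POLR1C and POLR1D (-0.60) was -0.65 with sgRNAs of both pools only, -0.75 without centring, -0.88 centred on non-targeting sgRNAs, -0.47 without the lowest and -0.72 without the highest sgRNA, and -0.49 with summed reads. In the sort, genes past the fold (4 higher, 17 lower) moved in the direction all genes did, to 0 higher and 31 lower without centring (113 and 18416 of all genes), 9 higher at 30 reads or more (8745), 30 lower centred on non-targeting sgRNAs (13863), 7 lower with a pseudocount of 5 (3538) and 8 lower without the most extreme sgRNA (3705). Levels at least 1 below safe-targeting in the high-screen control fell from 10 to 6 genes with a pseudocount of 0.5 CPM (2216 to 1674 of all genes). The causes were not tested. Leaving out absent sgRNAs removes those that the calls rested on in part or wholly, so that setting is no separate check of them. Adding the pseudocount before scaling, and requiring the ratio at the best rank to lie on the side scored, both chosen after seeing the data, changed no count of polymerase genes called. The sublibrary alternative was not run, as names carry no sublibrary code.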
